A study of Homo sapiens with 27 samples.

Results

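STUB1, BAG1, BAG2, BAG3, BAG4, BAG5, BAG6, HSPBP1 and ST13 are 9 genes grouped here as regulators of the HSP70 chaperones. They were taken by symbol from the 67130 gene rows of the deposited count tables. All 9 passed the filter on low counts and were tested in each fit. None was chosen by its level, but the set was chosen with earlier results of these data known. RNA was sequenced from human cell lines in which ARID1A, a subunit of the BAF chromatin remodelling complex, had been knocked out. The 293T libraries, from an embryonic kidney line, comprised the knockout alone (KO) and the knockout re-expressing Flag-tagged ARID1A as wild type (WT), V2084D, G2087E, G2087R or K2025E from a lentivirus. The libraries labelled Huh7, a hepatocellular carcinoma line, comprised the knockout re-expressing WT, V2084D, or V2084D together with knockdown of STUB1 (shSTUB1). Each of the 9 groups held 3 libraries. Every group carried the ARID1A knockout, and the labels give no Huh7 knockout without re-expression, no WT with shSTUB1 and no control shRNA. They do not say whether a line was 1 clone or whether replicates were grown apart, so p-values measure the spread between these samples, which may be technical.

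HSP70 holds unfolded proteins tightly while ADP is bound and releases them when ADP is exchanged for ATP. HSPBP1 and several of the BAG proteins speed that exchange, whereas ST13 (also called HIP) slows the loss of ADP. STUB1 (also called CHIP) is a ubiquitin ligase that docks on the tails of HSP70 and HSP90 and marks their clients for destruction, and BAG2 and HSPBP1 are known to restrain it.

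BAG3 is a known target of the heat shock factor HSF1, so promoters of members were searched for paired heat shock units. RefSeq windows on GRCh38.p14, from 250 bases before to 50 bases after a transcription start, were taken for BAG1, BAG2, BAG3, BAG5, BAG6 and HSPBP1. STUB1, BAG4 and ST13 were not searched, so whether their promoters hold a match is not known here. The letters searched were GAANNTTC and TTCNNGAA, each of which reads the same on both strands. Among 35116 windows of this length, 6.77% held GAANNTTC, 7.74% held TTCNNGAA and 13.5% held either. Among the members searched, only the BAG2 window held a match, which begins 124 bases before the start. It is shown in capitals beside the windows of BAG3 and HSPBP1, which held none. The BAG2 window is chr6:57172076-57172375 on the plus strand, the BAG3 window chr10:119651130-119651429 on the plus strand, and the HSPBP1 window chr19:55280334-55280633 on the minus strand, the outermost of 3 for that gene.
BAG2: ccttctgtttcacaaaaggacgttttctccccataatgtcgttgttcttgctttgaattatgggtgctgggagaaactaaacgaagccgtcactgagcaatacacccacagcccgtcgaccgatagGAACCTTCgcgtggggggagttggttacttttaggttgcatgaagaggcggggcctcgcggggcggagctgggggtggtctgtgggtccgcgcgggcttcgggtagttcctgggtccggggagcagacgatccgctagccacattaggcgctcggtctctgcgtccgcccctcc
BAG3: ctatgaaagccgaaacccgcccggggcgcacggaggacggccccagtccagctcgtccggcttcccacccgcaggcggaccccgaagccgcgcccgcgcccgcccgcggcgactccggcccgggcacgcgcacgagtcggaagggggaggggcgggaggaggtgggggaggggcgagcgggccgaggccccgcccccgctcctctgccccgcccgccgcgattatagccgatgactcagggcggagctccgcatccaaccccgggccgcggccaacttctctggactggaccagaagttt
HSPBP1: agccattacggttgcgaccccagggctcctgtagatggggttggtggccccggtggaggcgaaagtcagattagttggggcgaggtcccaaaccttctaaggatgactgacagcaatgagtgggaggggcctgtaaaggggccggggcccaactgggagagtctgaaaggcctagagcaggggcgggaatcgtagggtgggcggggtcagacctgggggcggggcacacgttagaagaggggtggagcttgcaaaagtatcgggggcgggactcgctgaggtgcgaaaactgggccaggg
Windows of 8 chaperone genes from the lists below were searched too. HSPA8 held 4 matches, HSPA1A and HSPA1B held 1 each, HSPH1 and HSPE1 held none, and of the alternative windows of HSPD1, HSP90AA1 and DNAJB1 at least 1 held matches and 1 held none. A match is a string of letters and not a bound site, and its absence here concerns these 300 bases alone.

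Library totals ran from 33429483 to 55539529 counts in 293T and from 59124374 to 79915177 in the libraries labelled Huh7. ARID1A stood at 117 to 193 CPM (counts scaled to a common library size by TMM) in the 293T knockout and at 5690 to 114800 CPM in every re-expressing library except G2087R replicates 1 and 2, at 291 and 324 CPM. In the libraries labelled Huh7 ARID1A stood at 189 to 399.9 CPM in all groups. In those libraries 0 of 14 liver markers reached 10 CPM, and their summed level was 2.04 to 5.63 CPM, against 2.93 to 10.5 CPM in 293T. AFP was at most 0.0653 CPM there. Of 8 markers of the 293 line, 7 had a median of at least 1 CPM in both sets, so the hepatocellular origin is given only as the label states it. On the first principal component of the 293T libraries, K2025E replicates 2 and 3 lay beyond all others, at 104.3 and 66.6 against -47.79 to 40.2.

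Levels were compared between genes per kilobase of exon. The length joins all annotated exons of a gene, 6.65 kb for BAG2 and 7.07 kb for BAG1, so ranks depend on the annotation. On that scale STUB1, ST13 and BAG6 were the highest of the 9 genes in each of the 9 groups and BAG2 the lowest. In the 293T knockout ST13 had 88.3 ± 18.6 CPM per kb (SD, n = 3), STUB1 72.6 ± 4.72 and BAG6 57.0 ± 6.61. BAG3 at 18.5 ± 5.56, BAG5 at 18.02 ± 2.10, BAG4 at 17.0 ± 2.55 and HSPBP1 at 15.4 ± 2.20 CPM per kb lay within each other's spread there, as did BAG1 at 5.10 ± 0.314 and BAG2 at 4.90 ± 0.950. In WT of 293T HSPBP1 stood above that middle set, at 26.7 ± 4.40 CPM per kb.

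The order differed between the groups labelled Huh7. In WT it ran from ST13 (114 ± 4.38 CPM per kb) and STUB1 (98.8 ± 6.16) through BAG6 (49.9 ± 3.28), HSPBP1 (40.3 ± 2.32), BAG3 (17.5 ± 0.755), BAG5 (14.2 ± 1.29), BAG1 (12.9 ± 0.630) and BAG4 (11.0 ± 0.889) to BAG2 (3.68 ± 0.175). Of these neighbours, BAG5 and BAG1 lay within each other's spread. In V2084D HSPBP1 at 15 ± 2.12 CPM per kb, BAG4 at 12.6 ± 0.341, BAG5 at 12.6 ± 0.452 and BAG3 at 12.0 ± 1.25 lay within each other's spread. With shSTUB1, STUB1 at 31.9 ± 3.90 CPM per kb lay below BAG6 at 46.0 ± 4.34, and HSPBP1 at 14.0 ± 1.62 and BAG4 at 13.7 ± 1.46 lay within each other's spread.

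**Figure D1:**
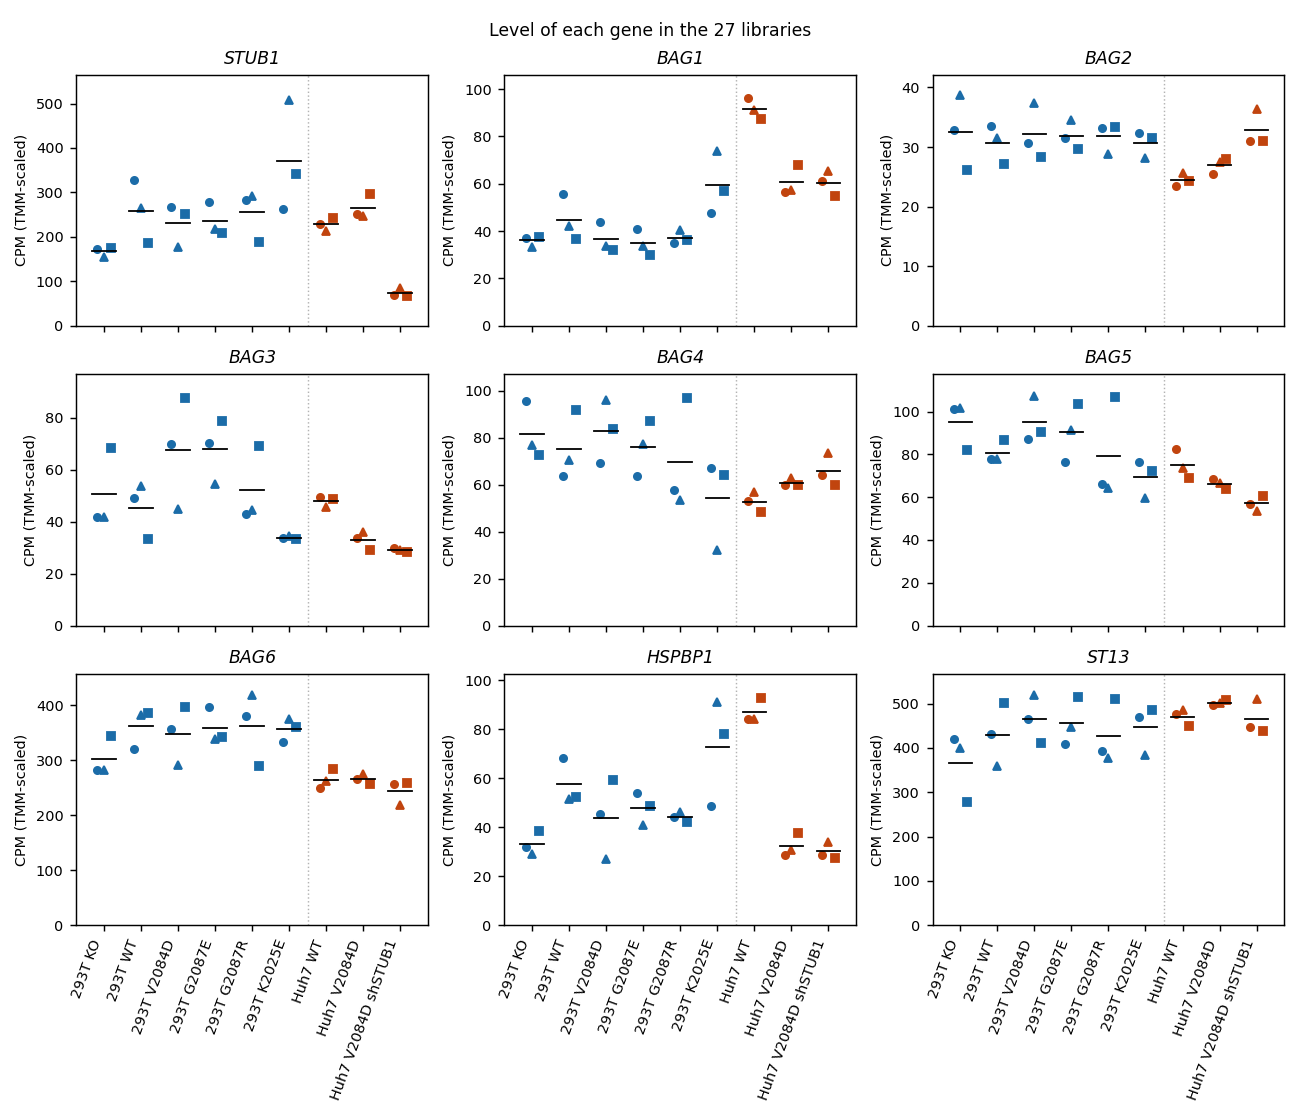
Level of each of the 9 genes in all 27 libraries, in TMM-scaled CPM on linear axes that start at 0. Circles, triangles and squares are replicates 1, 2 and 3, and the short line is the group mean. STUB1 drops to 67.2 to 84.1 CPM with shSTUB1, HSPBP1 drops to 28.7 to 37.5 CPM in V2084D of the libraries labelled Huh7, and both reach their highest 293T level in K2025E replicate 2.

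The knockdown was checked first on its target. STUB1 (ENSG00000103266, chromosome 16, 680224 to 682870, plus strand, GRCh38) had 251, 248 and 296 CPM in the 3 V2084D libraries labelled Huh7 and 70.1, 84.1 and 67.2 CPM in the 3 with shSTUB1. The groups were far apart. The knockdown libraries held 27.8% of the V2084D level (95% interval 23.8% to 32.6%), a log2 difference of -1.84 (SE 0.103, edgeR adjusted p = 8.78e-06). In bulk RNA, fewer cells with the transcript and less transcript per cell cannot be told apart. Of the exonic bases of STUB1, 42.4% are shared with JMJD8 on the opposite strand, and the strand setting of the counting is not given in the sources used here. JMJD8 itself had 102 ± 4.56 CPM with shSTUB1 and 83.4 ± 11.3 without (SD, n = 3), a log2 difference of 0.29 (SE 0.096, edgeR adjusted p = 0.0554).

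Among the other members, most levels with shSTUB1 overlapped those of V2084D alone, and BAG2 was the 1 member called higher. With no control shRNA, less STUB1 and the shRNA itself cannot be told apart. BAG2, which restrains STUB1, had 25.6, 27.5 and 28.0 CPM in V2084D and 31.0, 36.4 and 31.0 CPM with shSTUB1, with no overlap. The log2 difference was 0.28 (SE 0.084, edgeR adjusted p = 0.0378). That call was lost in 9 of 14 alternatives, with adjusted p from 0.0158 to 0.147 over all of them. It was lost in 5 of the 6 fits that left out 1 library of either group: without V2084D replicate 1, 2 or 3 (log2 0.24, 0.29 and 0.31) and without shSTUB1 replicate 1 or 2 (0.32 and 0.20). RAB23 on the opposite strand shares 42.7% of the BAG2 exonic bases. With STUB1 and BAG2, 1 member was called lower and 1 higher out of 9, where 21.5% of the 22510 genes tested were called, 10.8% higher and 10.8% lower.

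The remaining members are described by their intervals. BAG5, which carries several BAG domains, had 68.4, 66.5 and 63.7 CPM in V2084D against 56.8, 53.8 and 60.6 CPM with shSTUB1. Its groups did not overlap, and its log2 difference of -0.21 (SE 0.080) missed the threshold in edgeR (adjusted p = 0.0849) and passed it in DESeq2 (adjusted p = 0.0412). BAG3, the partner of HSPB8 in selective autophagy, had 33.7, 36.0 and 29.3 CPM against 29.7, 28.96 and 28.2 CPM, and these ranges overlap. Its log2 difference was -0.19 (SE 0.079, edgeR adjusted p = 0.122), and without V2084D replicate 3 it was -0.27 (edgeR adjusted p = 0.0246). The 95% interval of the log2 difference was -0.35 to 0.14 for HSPBP1, -0.21 to 0.20 for BAG1, -0.08 to 0.31 for BAG4, -0.29 to 0.05 for BAG6 and -0.25 to 0.03 for ST13.

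With V2084D against WT in the libraries labelled Huh7, HSPBP1, BAG1 and BAG3 were called lower and no member was called higher. ARID1A in these groups, at 342 to 399.9 CPM in WT and 216 to 271 CPM in V2084D, was near the 2 low G2087R libraries of 293T, and without a knockout of this set re-expression could not be checked. HSPBP1 (ENSG00000133265, chromosome 19, 55262231 to 55280381, minus strand), an exchange factor unrelated in fold to the BAG domain, had 84.2, 84.2 and 92.9 CPM in WT and 28.7, 30.9 and 37.5 CPM in V2084D. Every V2084D library lay far below every WT library, at 37.2% of the WT level (95% interval 31.3% to 44.1%). The log2 difference was -1.43 (SE 0.111, edgeR adjusted p = 4.69e-06). With shSTUB1 added it had 28.7, 34.1 and 27.6 CPM, and this group against WT gave a log2 difference of -1.53 (SE 0.112, edgeR adjusted p = 2.61e-06).

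BAG1 (ENSG00000107262, chromosome 9, 33247820 to 33264720, minus strand), which links HSP70 to the proteasome through a ubiquitin-like domain, had 96.2, 91.0 and 87.4 CPM in WT. It had 56.5, 57.5 and 68.1 CPM in V2084D and 61.3, 65.4 and 55.0 CPM with shSTUB1. Both V2084D groups lay below WT and overlapped each other. The log2 difference of V2084D against WT was -0.59 (SE 0.093, edgeR adjusted p = 0.000465).

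BAG3 (ENSG00000151929, chromosome 10, 119651370 to 119677819, plus strand) had 49.5, 45.6 and 48.8 CPM in WT. All V2084D libraries were lower, at 33.7, 36.0 and 29.3 CPM. The log2 difference was -0.54 (SE 0.079, edgeR adjusted p = 0.000292). The calls of HSPBP1, BAG1 and BAG3 held in all 14 alternatives.

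The other members moved less. STUB1 had 229.7, 214 and 243 CPM in WT and 251, 248 and 296 CPM in V2084D, without overlap but close at the edge. Its log2 difference was 0.21 (SE 0.0999, edgeR adjusted p = 0.115), and offsets for GC content and length made it 0.26 (edgeR adjusted p = 0.00163). BAG4, which binds the tail of a tumour necrosis factor receptor, had 52.9, 56.8 and 48.3 CPM in WT and 59.8, 62.7 and 59.8 CPM in V2084D, a log2 difference of 0.21 (SE 0.088, edgeR adjusted p = 0.0847). BAG5 had 82.4, 73.5 and 69.0 CPM in WT and lay lower in V2084D without overlap, a log2 difference of -0.18 (SE 0.080, edgeR adjusted p = 0.0986). BAG6, which guards newly made membrane proteins, stood at 249 to 284 CPM in WT and 257 to 275 CPM in V2084D, and ST13 at 451 to 486 and 496 to 509 CPM. Thus 3 of 9 members were called, all lower, where 42.0% of all genes were called, 22.0% higher and 20.0% lower. The share of members is near that background. For the libraries labelled Huh7 the share of all genes without overlap is not given, so the groups described as not overlapping have no background here.

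With shSTUB1 and V2084D together against WT, 7 of 9 members were called, 5 lower and 2 higher, where 45.1% of all genes were called, 21.7% lower and 23.5% higher. STUB1, at a log2 difference of -1.63 (SE 0.103), is one of the 5 by construction of the knockdown. BAG3 fell by 0.73 (SE 0.079, edgeR adjusted p = 3.41e-05) and BAG5 by 0.39 (SE 0.080, edgeR adjusted p = 0.00227) on the log2 scale. BAG2 rose by 0.42 (SE 0.084, edgeR adjusted p = 0.00196) and BAG4 by 0.32 (SE 0.088, edgeR adjusted p = 0.0124). Offsets for GC content and length ended the calls of BAG2 (log2 0.20, edgeR adjusted p = 0.119) and BAG4 (log2 0.11, edgeR adjusted p = 0.182), the members of lowest GC content at 37.0% and 40.0%. The 3 comparisons share libraries pairwise, so their values are not separate evidence.

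**Figure D2:**
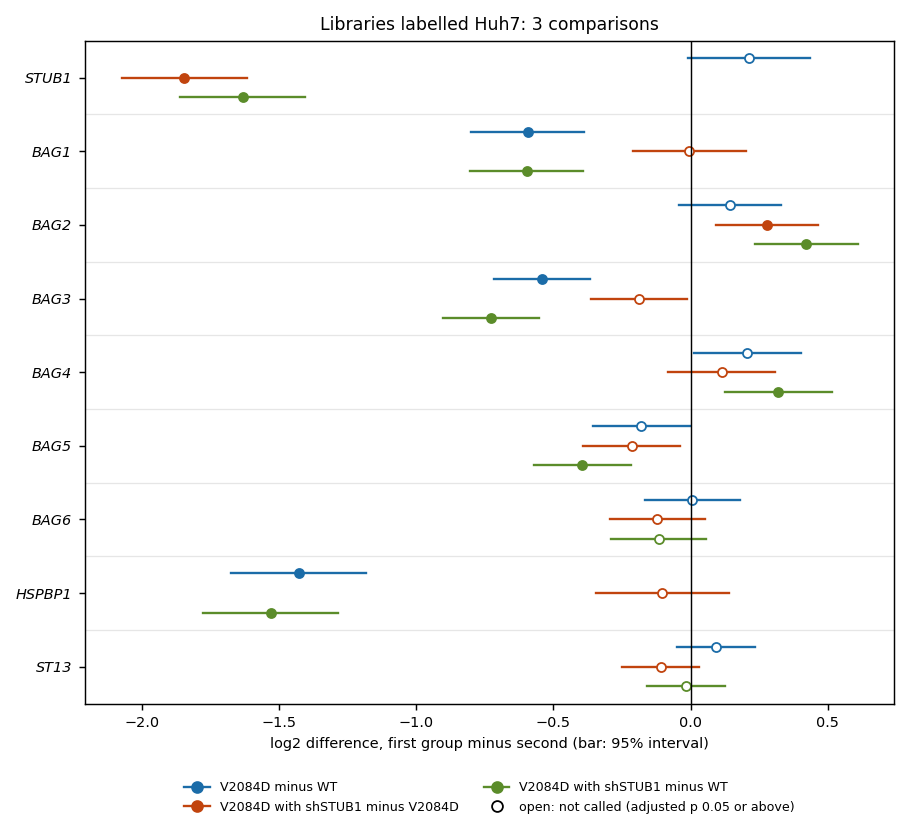
Log2 differences of the 9 genes in the 3 comparisons of the libraries labelled Huh7. Points are edgeR estimates, filled where the adjusted p is below 0.05, and bars are 95% intervals. HSPBP1, BAG1 and BAG3 lie left of 0 in both comparisons with WT, and STUB1 lies at -1.84 and -1.63 in the comparisons that involve the knockdown.

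In 293T, STUB1 was lowest in the knockout, at 173, 155.5 and 175 CPM. It had 328, 264 and 185 CPM in WT, 267, 177 and 252 in V2084D, 279, 217 and 209.5 in G2087E, 283, 293 and 189 in G2087R and 264, 508 and 341 in K2025E. All 15 libraries labelled as re-expressing lay above the highest knockout library, although V2084D replicate 2 did so by less than 2 CPM. That separation depended on the TMM scaling. Knockout replicate 3 held 10289 STUB1 counts of 52767101 in all, and WT replicate 3 held 8096 of 45736601, a smaller share. By plain library totals the means were 184 ± 13.3 CPM in the knockout and 261 ± 77.8 in WT (SD, n = 3). The share of all genes that stood clear of the knockout in this way was 8.93% for WT, 7.44% for V2084D, 8.93% for G2087E, 5.41% for G2087R and 16.0% for K2025E. The share of genes clear in all 5 at once is not given. These 5 comparisons share the knockout libraries, so a low knockout value enters all of them. G2087R replicates 1 and 2, whose ARID1A was near the knockout level, are the higher of their group for STUB1.

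Only K2025E against the knockout gave calls, and STUB1, HSPBP1 and BAG1 rose there. STUB1 reached 221% of the knockout level (95% interval 154% to 317%), a log2 difference of 1.14 (SE 0.249, edgeR adjusted p = 0.0095). HSPBP1 had 32.02, 29.1 and 38.4 CPM in the knockout and 48.6, 91.4 and 78.2 CPM in K2025E, without overlap. Its log2 difference was 1.13 (SE 0.252, edgeR adjusted p = 0.01). BAG1 had 37.3, 33.5 and 37.4 CPM in the knockout and 47.8, 73.8 and 57.0 CPM in K2025E, also without overlap, a log2 difference of 0.72 (SE 0.196, edgeR adjusted p = 0.023). In all, 3 of 9 members were called, each of them higher, where 12.9% of the 23201 genes tested were called, 7.17% higher and 5.72% lower.

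These 3 calls rest on K2025E replicate 2. Without it no member was called, the log2 differences were 0.82 for STUB1, 0.91 for HSPBP1 and 0.51 for BAG1, and edgeR called 1 gene of all in place of 2989. Without replicate 3 STUB1 alone was called, and likewise without knockout replicate 2. Without knockout replicate 1 or 3 BAG1 was lost (edgeR adjusted p = 0.0707 and 0.0506) and the other two stayed called. Without both K2025E replicates that stood apart the lone library gave 0.65 for STUB1, 0.55 for HSPBP1 and 0.40 for BAG1, with the lone sample assumed to vary like the other groups. STUB1 and HSPBP1 have the highest GC content of the 9 genes, 65.0% and 64.6% of the longest transcript. With offsets for GC content and length STUB1 was at 0.44 (SE 0.098, edgeR adjusted p = 0.011) and HSPBP1 at 0.44 (SE 0.179, edgeR adjusted p = 0.129), while BAG1 was at 0.77 (SE 0.183, edgeR adjusted p = 0.0151).

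**Figure D3:**
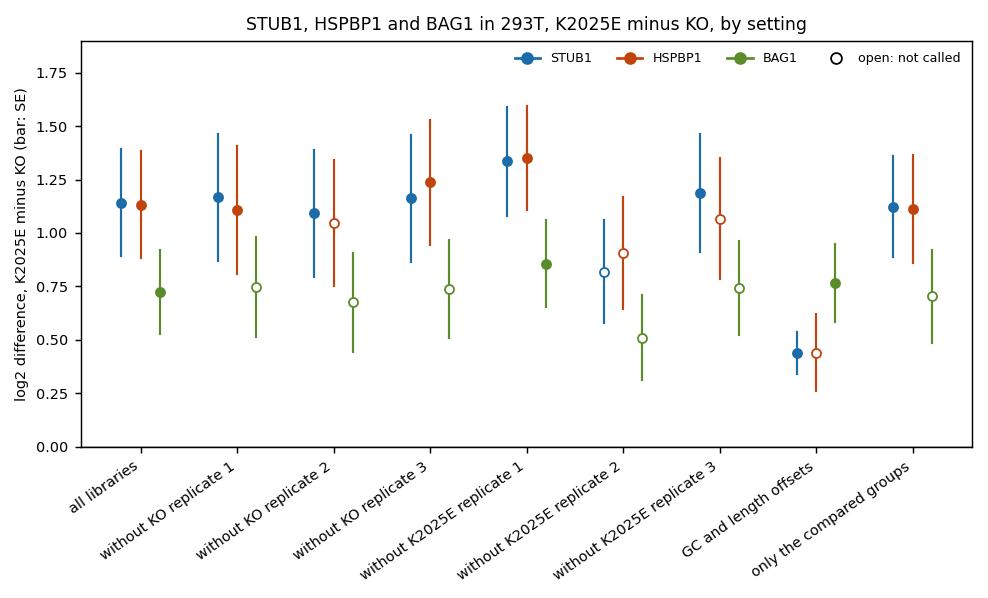
Log2 differences of K2025E minus the knockout in 293T for STUB1, HSPBP1 and BAG1, with all libraries, with 1 library left out in turn, with GC and length offsets and with only the compared groups. Points are edgeR estimates with their SE, filled where the adjusted p is below 0.05. All 3 points are open without K2025E replicate 2, and STUB1 and HSPBP1 move from 1.14 and 1.13 to 0.44 with the offsets.

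BAG3, BAG4 and BAG5 lay lower in K2025E than in the knockout without overlap and missed the threshold. BAG3 had 42.0, 42.0 and 68.4 CPM in the knockout and 33.6, 34.5 and 33.2 CPM in K2025E, a log2 difference of -0.59 (SE 0.264, edgeR adjusted p = 0.148). With the GC and length offsets it was -0.91 (edgeR adjusted p = 0.028). BAG4 had 95.5, 76.8 and 72.5 CPM against 67.2, 32.1 and 64.1 CPM, a log2 difference of -0.58 (SE 0.265, edgeR adjusted p = 0.155). BAG5 had 101, 102 and 82.2 CPM against 76.4, 59.6 and 72.4 CPM, a log2 difference of -0.45 (SE 0.192, edgeR adjusted p = 0.128). With STUB1, HSPBP1 and BAG1 above, 6 of 9 members thus had groups that did not overlap, 3 higher and 3 lower, where such groups made up 30.3% of all genes.

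In the other 4 comparisons with the knockout neither edgeR nor DESeq2 called a member, and edgeR called 0% of all genes. At an unadjusted p below 0.05, WT minus KO had 2 members (11.0% of all genes), V2084D minus KO had 0 (4.83%), and G2087E minus KO (5.66%) and G2087R minus KO (4.31%) had 1 each. HSPBP1 in WT had 68.5, 51.8 and 52.4 CPM, above all knockout libraries, with a log2 difference of 0.79 (SE 0.251, edgeR adjusted p = 0.343). STUB1 in WT gave 0.63 (SE 0.247, edgeR adjusted p = 0.371) and in G2087R 0.60 (SE 0.247, edgeR adjusted p = 0.973). Over 16 alternatives the STUB1 values ran from 0.31 to 0.80 in WT and from 0.16 to 0.76 in G2087R. HSPBP1 in G2087E, at 54.0, 41.1 and 48.7 CPM, gave 0.53 (SE 0.250, edgeR adjusted p = 0.86). HSPBP1 had 45.3, 27.1 and 59.1 CPM in V2084D, which straddle the knockout, and 44.1, 46.4 and 42.3 CPM in G2087R.

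**Figure D4:**
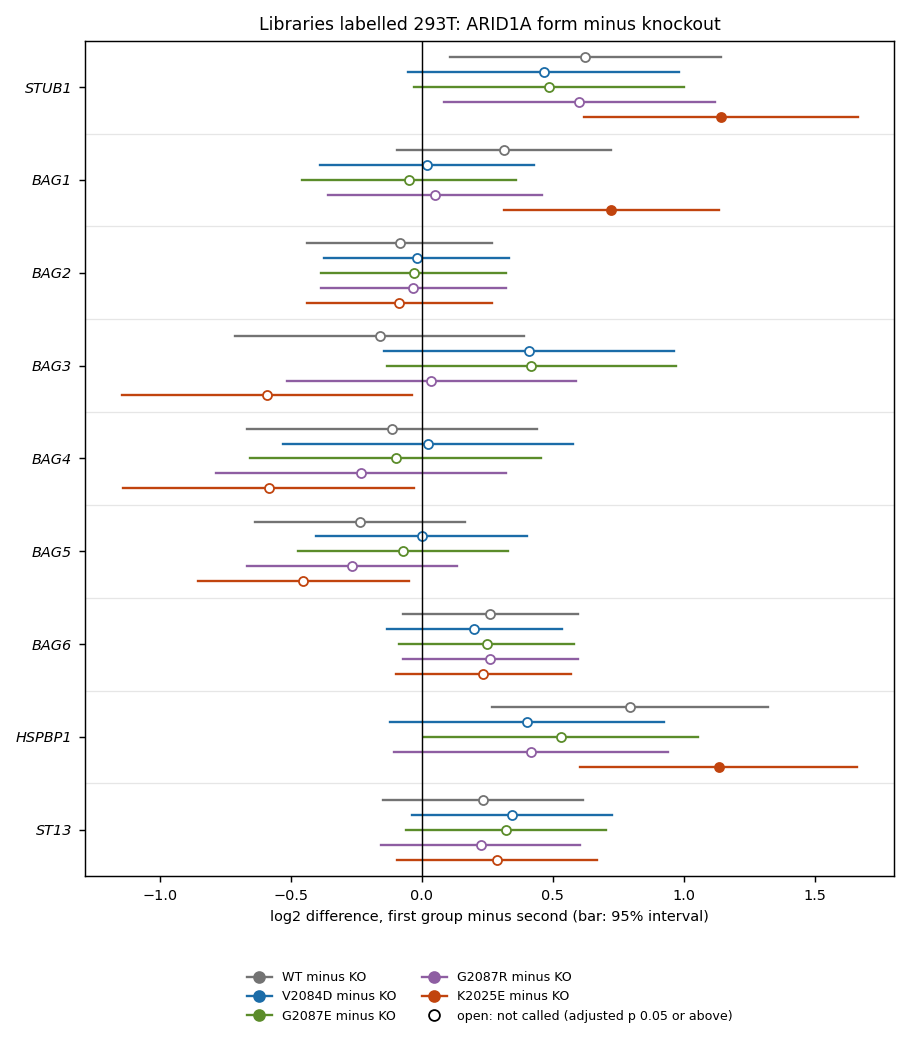
Log2 differences of the 9 genes between each re-expressed ARID1A form and the knockout in 293T. Points are edgeR estimates, filled where the adjusted p is below 0.05, and bars are 95% intervals. STUB1 lies right of 0 for all 5 forms, from 0.47 to 1.14, and only STUB1, HSPBP1 and BAG1 in K2025E are filled.

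Against WT no mutant form in 293T had a member called by edgeR or DESeq2, where edgeR called 0% of genes for V2084D and G2087E and 0.00431% for G2087R and K2025E. At an unadjusted p below 0.05 V2084D, G2087E, G2087R and K2025E had 1, 1, 0 and 2 members, where 2.01%, 2.05%, 4.45% and 8.27% of all genes passed. BAG3 had 49.3, 53.9 and 33.2 CPM in WT, 69.9, 44.8 and 87.8 CPM in V2084D and 70.2, 54.7 and 78.9 CPM in G2087E. The V2084D range overlaps WT and the G2087E range clears it by less than 1 CPM. The log2 differences were 0.57 (SE 0.264) and 0.58 (SE 0.264), each with an edgeR adjusted p of 1. K2025E minus WT gave 0.52 (SE 0.246) for STUB1 and 0.41 (SE 0.195) for BAG1, each with an edgeR adjusted p of 0.601 and overlapping libraries. ST13, BAG6 and BAG2 were the steadiest members in 293T. Their highest group mean was 1.27, 1.2 and 1.06 times their lowest, against 2.21 for STUB1, 2.19 for HSPBP1 and 2.01 for BAG3.

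The difference of V2084D against WT was then compared between the libraries labelled 293T and those labelled Huh7 in a joint fit of 27 libraries. ARID1A was at 5690 CPM or more in the 293T libraries compared and at 216 to 399.9 CPM in those labelled Huh7, so the contrasts carry the same labels without the same ARID1A level. BAG3 went from a log2 difference of 0.57 in 293T to -0.54 in the libraries labelled Huh7, and the difference of these differences was -1.09 (SE 0.324, edgeR adjusted p = 0.0338). For HSPBP1 it was -1.02 (SE 0.312, edgeR adjusted p = 0.0392). These 2 of 9 members were called, both lower, where 9.72% of 24546 genes were called, 5.50% higher and 4.21% lower. The call was lost in 9 of 20 alternatives for BAG3 (adjusted p from 0.00741 to 0.107) and in 11 of 20 for HSPBP1 (from 1.22e-05 to 0.137), and the values ranged from -1.32 to -0.86 and from -1.28 to -0.75. Leaving out V2084D replicate 3 of 293T gave the values nearest 0, -0.86 and -0.75. Without WT replicate 3 of 293T, the lowest WT library for BAG3, its value was -0.92 (edgeR adjusted p = 0.0821). The labelled line, the ARID1A level and whatever else separated the 2 sets of libraries cannot be told apart.

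**Figure D5:**
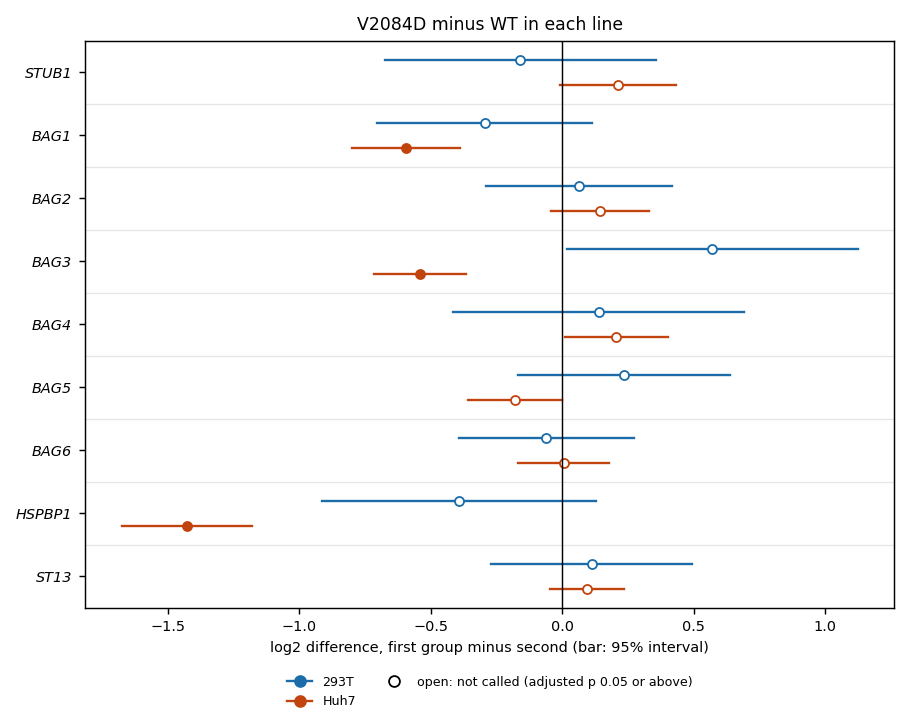
Log2 differences of V2084D minus WT for the 9 genes in 293T and in the libraries labelled Huh7, each from the fit of its own line. Points are edgeR estimates, filled where the adjusted p is below 0.05, and bars are 95% intervals. BAG3 lies at 0.57 in 293T and at -0.54 in the libraries labelled Huh7, and the bars of 293T are the wider ones.

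Among the HSP70 and HSP110 chaperones that these regulators act on, 6 of 10 fell with V2084D in the libraries labelled Huh7 and none rose, where 42.0% of all genes were called and 20.0% lower. HSPA1L, HSPA6, HSPA14 and HSPA4L were not called. The list had a median log2 difference of -1.18 against 0.03 over all genes tested. HSPA8, the constitutive HSP70, had 275 ± 3.21 CPM in V2084D and 2018 ± 4.11 in WT (SD, n = 3), a log2 difference of -2.88 (SE 0.046, edgeR adjusted p = 1.95e-10). The inducible HSPA1A and HSPA1B, near-identical copies whose reads may be split, gave -3.42 and -3.33, and HSPH1, an HSP110, gave -2.16. With shSTUB1 against V2084D 3 of 10 were called lower (10.8% of all genes), HSPA8 at -0.99, HSPA1A at -1.45 and HSPA1B at -1.45, while the list's median was -0.07. In 293T edgeR called 0 of 10 in each of the 9 comparisons. For V2084D minus WT, the comparison with the same labels, the list had a median of 0.50 against -0.01 over all genes, HSPA1A was at 2.39 (SE 0.575, edgeR adjusted p = 1) and HSPA6 at 6.04 (SE 1.48, edgeR adjusted p = 1). At an unadjusted p below 0.05, 4 of 10 were higher there and 0 lower, where 2.01% of all genes passed in either direction. DESeq2 called 1 higher. For V2084D and G2087E minus KO the medians were 0.93 and 0.74 against 0.01 and 0.00 over all genes. At an unadjusted p below 0.05, 7 and 5 of 10 were higher there and 0 lower. Of all genes, 4.83% and 5.66% passed in either direction. DESeq2 called 3 higher in each, and its counts over all genes are given at the end. DESeq2 also called 1 higher for G2087E minus WT and 1 for G2087R minus KO, and 0 in the other 4 comparisons. HSPA1A stood at 3.14 in V2084D minus KO (SE 0.593, edgeR adjusted p = 0.468), a comparison in which BAG3 was at 0.41 with a 95% interval of -0.14 to 0.96. Whether the chaperones differed between the 2 sets of libraries was not tested.

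Of 11 partners of STUB1, namely ubiquitin-conjugating enzymes, HSP90 and linked factors, 4 were called higher and 5 lower for V2084D against WT in the libraries labelled Huh7, where 22.0% of all genes were called higher and 20.0% lower. HSP90AA1 gave -1.80, STIP1, which bridges HSP70 and HSP90, -1.11, HSP90AB1 -0.77 and UBE2V1 -0.64, while the enzymes UBE2D2 and UBE2W, named after their values were seen, gave 0.69 and 0.71. With shSTUB1 against V2084D, UBE2N rose by 0.28 and STIP1 and UBE2W fell by 0.31 and 0.66 on the log2 scale, 3 of 11 where 21.5% of all genes were called. In K2025E minus KO in 293T HSP90AB1 alone was called (12.9% of all genes), at 0.52. Of 11 tested HSF1 targets outside the chaperone list, 10 were called lower and 1 higher for V2084D against WT in the libraries labelled Huh7 (20.0% and 22.0% of all genes), with DNAJA1 at -1.96, DNAJB1 at -1.65, FKBP4 at -0.86 and HSPD1 at -1.09. DNAJB1, FKBP4 and HSPB1 were called lower again with shSTUB1, at -0.52, -0.17 and -0.29, 3 of 11 where 10.8% of all genes were lower. In K2025E minus KO HSPE1 and AHSA1 rose by 0.82 and 0.69, 2 of 12 where 7.17% of all genes rose.

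Among 5 partners of BAG3 in selective autophagy, 3 rose and 1 fell with V2084D in the libraries labelled Huh7, where 22.0% of all genes rose and 20.0% fell, and BAG3 itself fell. GABARAPL1 gave 0.69, SYNPO2 1.22 and HSPB8, the small heat shock protein that BAG3 binds, 0.84, while the cargo receptor SQSTM1 gave -0.41. With shSTUB1 against V2084D GABARAPL1 and MAP1LC3B were called lower (10.8% of all genes), at -0.42 and -0.38. Of 9 chromosome neighbours of STUB1, 3 were called higher and 2 lower for V2084D against WT in the libraries labelled Huh7 (42.0% of all genes), and 1 higher and 3 lower for shSTUB1 against V2084D (21.5%). For K2025E minus KO in 293T 2 were higher (12.9% of all genes called, 7.17% higher), RHBDL1 at 1.5 and RHOT2 at 0.77. JMJD8, which overlaps STUB1, gave 0.68 in that last comparison (SE 0.248, edgeR adjusted p = 0.0789).

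The genes whose pattern over the 18 libraries of 293T was most like that of STUB1 were sought among 6571 genes, by the root mean square difference of centred log2 CPM. TSR3 (0.0872), MRPL12 (0.0894), AURKAIP1 (0.0918), MRPL55 (0.0958) and EEF1D (0.0968) came closest, where the median gene was at 0.465 and STUB1 itself varied by 0.422 about its mean. The GC content of these 5 genes was 59.9% to 67.9%, against a median of 48.8% over the genes ranked, and STUB1 has 65.0%. For BAG3 the nearest were KDM6B (0.243), HIC2 (0.266), AMBRA1 (0.276), TNFRSF21 (0.279) and TMEM201 (0.28), with a median of 0.518. No gene came as close to BAG3 as those 5 came to STUB1.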

How the data were processed

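Per the labels' protocols, RNA was harvested in Trizol, purified on columns and made into NEBNext Ultra II libraries. The authors deposited raw counts per gene for each cell line. The submitters' processing notes name the build GRCh38 and edgeR, while the aligner, counting tool, annotation and strand setting are not given in the sources used here. Every count column matched 1 sample. The members and gene lists were chosen with earlier results of these data known.

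The main test was the quasi-likelihood test of edgeR 4.0.16 under R 4.3.3, after TMM scaling and filterByExpr with minimum count 10, with all groups of a line in 1 fit, and both lines in 1 fit for the difference between lines. Called means an adjusted p (Benjamini-Hochberg, over every gene tested) below 0.05. The SE was derived from the log2 difference and its F statistic. Statistics are printed for members that were called or had an unadjusted p below 0.05, for STUB1 in the libraries labelled Huh7, and for up to 4 genes per list with the smallest adjusted p. JMJD8 and the 95% intervals were added after values were seen. Replicate libraries differed by 11.7 to 345 times counting variance, so the spread between libraries sets the precision. Alternatives were RLE factors, DESeq2 1.42.0, other filters, offsets for GC content and length, the replicate number as a block, the compared groups only and each library left out. Fits without the 2 G2087R libraries low in ARID1A and without K2025E replicates 2 and 3 were chosen after seeing the data. Replicate numbers paired samples for G2087R minus WT alone (deviations correlated at 0.132, 0.178 and 0.315). Exon lengths, positions and GC content came from GENCODE 29, and promoter windows from RefSeq. The fits were also run on simulated counts, whose outcome is not given here. The simulated libraries varied independently gene by gene, without shifts across a whole library. They therefore cannot speak to the spread of K2025E replicates 2 and 3. Of 7 rows with the symbol BAG6, 6 were 0 in every library and the other was used. The 20 copies of ST13 held 2.29% to 3.36% of the counts of ST13 and copies together.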

Additional observations from a re-analysis of the deposited data

Results flagged for a closer look

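For BAG3 the V2084D against WT difference was not the same in the Huh7-labelled set as in the 293T set, by -1.09 on the log2 scale (Huh7 minus 293T, edgeR adjusted p = 0.0338), as tested by an interaction term over 27 libraries. BAG3 was lower in 3 of 3 V2084D libraries labelled Huh7 than in any WT library of that set. In 293T, 2 of 3 V2084D libraries lay above all WT libraries. The same term was -1.02 for HSPBP1 (edgeR adjusted p = 0.0392), where 3 of 3 V2084D libraries labelled Huh7 lay below all WT libraries and the 293T groups overlapped. The call was lost in 9 of 20 alternatives for BAG3, 8 of them among the 12 fits that left out 1 library, and in 11 of 20 for HSPBP1, 9 of them among those 12. The libraries labelled Huh7 held no liver marker at 10 CPM, had 7 of 8 markers of the 293 line at a median of at least 1 CPM, and had ARID1A at 189 to 399.9 CPM, so a difference between cell lines is not shown.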

How the results depend on the processing

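No result changed direction under any alternative. Of the alternative counts of members called, 181 stayed within 1.5 times the main count and 25 did not. Of the alternative values of single members, 441 stayed on their side of the threshold, 48 lost the call and 13 gained it. For K2025E minus KO (3 called) the count was 6 with the replicate block and GC and length offsets, 0 without both K2025E libraries that stood apart, and 0 to 3 with 1 library left out. For WT minus KO in 293T (0 called) it was 1 with the block and offsets, HSPBP1 at 0.50. For V2084D minus WT in the libraries labelled Huh7 (3 called) it was 5 with the offsets and 5 with block and offsets, where STUB1 and BAG5 were added. For shSTUB1 minus V2084D (2 called) it was 1 without a filter, 1 with only the compared groups, and 1 to 2 with 1 library left out. For the difference between lines (2 called) it was 0 without a filter, 1 with the replicate block, and 0 to 2 with 1 library left out. The cause was not tested.

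The replicate block alone gave 3, 4, 2 and 7 members called for K2025E minus KO and, in the libraries labelled Huh7, for V2084D minus WT, shSTUB1 minus V2084D and shSTUB1 minus WT. It gave 0 in the other 8 comparisons within a line, including G2087R minus WT, the 1 comparison whose numbers paired the samples. RLE factors moved no group mean of a member by more than 0.745%, and plain library totals by at most 9.63%.

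Counts over all genes moved too. K2025E minus KO had 2989 genes called, 4527 by DESeq2, 436 with only the compared groups and 1 to 5270 with 1 library left out. WT minus KO had 0, 70 by DESeq2 and 383 with block and offsets, and the other 293T comparisons had 0 or 1 by edgeR and 14 to 37 by DESeq2. K2025E minus WT had 1, and 1048 without K2025E replicate 1, and G2087R minus WT had 1, and 74 with block and offsets. The difference between lines had 2385, 4342 with the offsets and 5465 with block and offsets. For shSTUB1 minus V2084D 4850 became 2887 without V2084D replicate 1.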
